A study of Saccharomyces cerevisiae with 12 samples.

Results

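The 8 genes described here encode the core proteins of the small nucleolar ribonucleoprotein particles (snoRNPs) of budding yeast, Saccharomyces cerevisiae. They were chosen by name from a table of 7033 features: NOP1, NOP56, NOP58 and SNU13 for the box C/D particles, and CBF5, GAR1, NHP2 and NOP10 for the box H/ACA particles. All 8 were in the table and all 8 were among the 6097 features tested. RNA was sequenced from 12 cultures of a W303 MATa strain, 3 for each of 4 plasmids, 3 h after auxin was added. Scc2 is the protein that loads the cohesin ring onto chromosomes. Every strain had the alleles can1-100, leu2-3,112, ade2-1, trp1-1 and his3-11,15, expressed the auxin receptor OsTIR1 from the ADH1 promoter at ura3-1, and carried the chromosomal SCC2 gene fused to a degron (AID*-6FLAG, marked with HYG), so that auxin removes the chromosomal protein in all groups, WT included. The groups therefore differed in a HIS3-marked pRS413 plasmid: scc2-R787G-7MYC in R787G, scc2-G1242V-7MYC in G1242V, no SCC2 insert in empty_vector, and SCC2-7MYC in WT. Cultures in SD-HIS medium were diluted to an OD600 of about 0.1 and left for 90 min before auxin (IAA) was added to 1 mM, and were harvested at an OD600 of 0.4 to 0.8.

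Ribosomal RNA is modified at many positions by snoRNPs, in each of which a small nucleolar RNA (snoRNA) pairs with the target and a fixed set of core proteins carries out the reaction. Box C/D particles methylate the ribose and box H/ACA particles turn uridine into pseudouridine, and particles of both kinds also take part in cutting and folding the ribosomal RNA precursor. In yeast the core proteins are nucleolar and essential, and their genes belong to the ribosome biogenesis regulon, whose promoters often hold the PAC and RRPE motifs.

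The promoters were searched for both motifs. The PAC core (GATGAG) and the RRPE core (AAAAATTTT) were searched on both strands in the 250 bases before each start codon of the R64 genome, which is sacCer3; the genome is that of strain S288C, and differences in W303 were not examined. The PAC core was present in 8 of the 8 core genes and in 1022 of 6001 promoters (17.03%). The RRPE core was present in 7 of the 8, all but NOP10, and in 404 of 6001 promoters (6.732%). Both were present in 7 of the 8, and in 201 of 6001 promoters (3.349%). The PAC match lay between 204 bases (its far end in NOP1) and 97 bases (its near end in NHP2) before the start codon. In 5 of the 7 genes with both motifs the PAC match stood nearer to the start codon than every RRPE match; in NOP56 the order was the other way, and in SNU13 the PAC match lay between a pair of RRPE matches. A match is a description of the letters, and binding was not measured.

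The sequences are the 150 bases from 250 to 101 before the start codon of 6 genes, 5' to 3' on the strand of the gene, with the PAC and RRPE letters in capitals. NOP1 (chrIV:427114-427263, plus strand), NOP56 (chrXII:545847-545996, plus strand), NOP58 (chrXV:898461-898610, minus strand), CBF5 (chrXII:505884-506033, plus strand) and GAR1 (chrVIII:283399-283548, minus strand) are given because their RNAs fell in the comparison described next and both motifs lie in the window. NOP10 (chrVIII:241414-241563, plus strand) is given because it is the member with no RRPE core. No other annotated gene overlaps these windows.
NOP1: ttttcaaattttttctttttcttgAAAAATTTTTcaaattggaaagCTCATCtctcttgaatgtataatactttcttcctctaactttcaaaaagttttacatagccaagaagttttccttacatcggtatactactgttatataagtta
NOP56: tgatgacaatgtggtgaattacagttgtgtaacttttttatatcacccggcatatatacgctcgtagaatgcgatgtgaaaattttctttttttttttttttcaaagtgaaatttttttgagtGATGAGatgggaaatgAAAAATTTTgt
NOP58: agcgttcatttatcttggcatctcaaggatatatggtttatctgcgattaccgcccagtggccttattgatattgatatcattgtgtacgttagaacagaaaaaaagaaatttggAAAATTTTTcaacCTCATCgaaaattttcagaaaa
CBF5: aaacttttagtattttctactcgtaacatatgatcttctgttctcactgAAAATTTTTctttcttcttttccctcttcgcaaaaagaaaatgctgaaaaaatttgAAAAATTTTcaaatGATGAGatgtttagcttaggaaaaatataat
GAR1: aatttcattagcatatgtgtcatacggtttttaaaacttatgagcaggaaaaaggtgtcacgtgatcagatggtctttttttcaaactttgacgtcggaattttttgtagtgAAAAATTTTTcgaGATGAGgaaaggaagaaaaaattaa
NOP10: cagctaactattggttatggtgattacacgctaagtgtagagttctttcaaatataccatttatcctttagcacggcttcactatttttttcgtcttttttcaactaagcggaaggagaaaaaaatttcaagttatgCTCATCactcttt
CTCATC is the PAC core read on the other strand. A capital run of 10 letters holds the RRPE core on both strands, overlapping. In NOP58 the RRPE and PAC cores are 4 bases apart, and in GAR1 they are 3 bases apart.

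**Figure D1:**
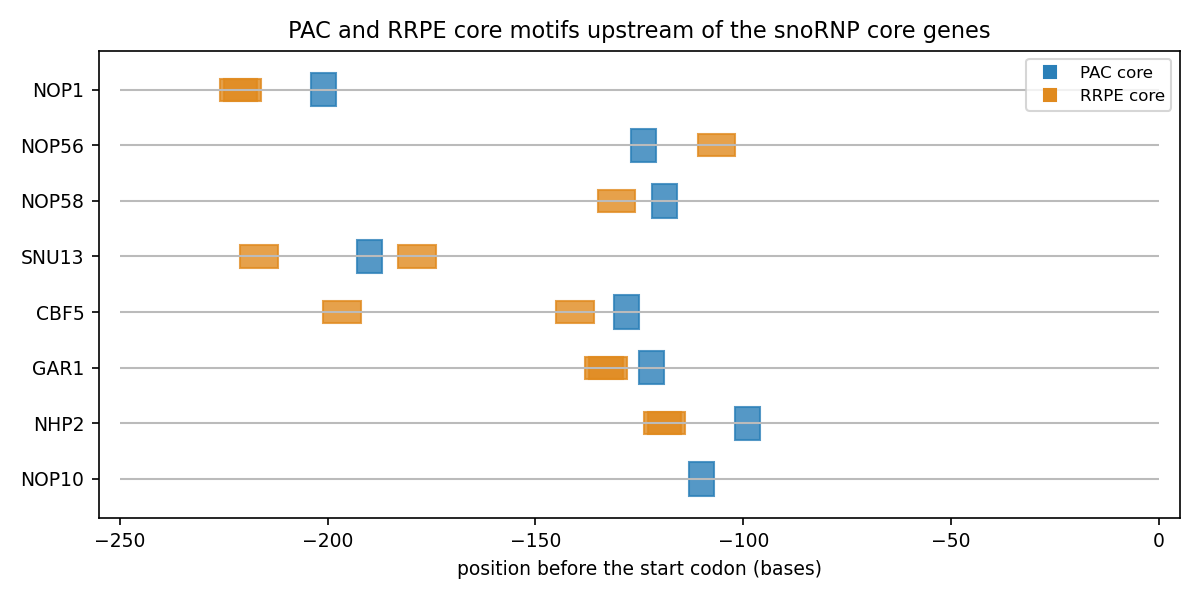
Positions of the PAC core (blue) and the RRPE core (orange) in the 250 bases before the start codon of the 8 core genes, in bases on the horizontal axis with the start codon at 0. The PAC core is present in all 8 genes and the RRPE core is missing from NOP10 alone.

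The deposited values are TPM, transcript abundances relative to a fixed total per library, scaled here between libraries by a median-of-ratios factor (0.903 to 1.186) and called scaled TPM; read depth is unknown, so no counting error can be given. SCC2 RNA, summed over the chromosomal and plasmid copies, checked the plasmids. It was 86.6, 99.8 and 90.3 scaled TPM in R787G, 51.2, 93.3 and 12.4 in the libraries labelled G1242V, 12.8, 12.5 and 12.1 in empty_vector, and 120, 128 and 109 in WT. The G1242V library 3 was thus at the empty_vector level and library 1 lay between the groups, so the text speaks of libraries labelled G1242V and gives results with library 2 alone. HIS3 RNA stood at 2501, 1043 and 2783 in the libraries labelled G1242V, against 2426 to 3504 in empty_vector and 797 to 901 in WT. Its feature does not separate the plasmid marker from the chromosomal his3 allele. The 6 MATa marker genes summed to 461 to 681 in R787G, 692 to 720 in G1242V, 622 to 730 in empty_vector and 496 to 595 in WT, the 4 MATalpha markers stayed between 32.6 and 56.2 and the 5 sporulation markers between 15.6 and 25.0, with no marker at 0 in every library. Ribosomal RNA left after its depletion differed between groups: the 25S feature RDN25-1 ranged over 151 to 217 in R787G, 54.2 to 201 in G1242V, 171 to 203 in empty_vector and 582 to 981 in WT. Its part in the results below was not tested.

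Averaged over all libraries and given per length, the core genes ranged from 56.3 scaled TPM for GAR1 to 316 for NOP10. GAR1 lay at the 59.9th percentile of the features tested and NOP10 at the 93.7th. Between them stood NOP58 at 70.9, NOP1 at 77.8, CBF5 at 84.0, NOP56 at 90.7, SNU13 at 117 and NHP2 at 129. In TPM the messages for proteins of 1 particle were thus unequal, with the short NOP10 reading frame (177 bp) highest and GAR1 lowest within box H/ACA. How far the correction for length shapes the value of so short a feature was not tested. Protein amounts were not measured.

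In the libraries labelled G1242V, 5 of the 8 core genes fell against WT, and none rose. The 5 were NOP1, NOP56 and NOP58 of box C/D, and CBF5 and GAR1 of box H/ACA. The other members were SNU13 and NHP2, which lay below WT without passing the test, and NOP10, which lay above it. Of all features tested, 2.59% were called lower and 1.98% higher, at an adjusted p under 0.05 by limma with Benjamini-Hochberg adjustment over all 6097 features. The median log2 fold change of the 8 was -0.34, beside 0.01 over all features; fold changes are of log2(scaled TPM + 1). In 7 of the 8 every library labelled G1242V lay below every WT library, as did 19.6% of all features, and the same 7 had an unadjusted p under 0.05, beside 13.6% of all features that were lower at that level.

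NOP1 (YDL014W, chromosome IV, 427364 to 428347) encodes fibrillarin, the methyltransferase of the box C/D particle. It stood at 76.1, 80.4 and 83.4 scaled TPM in R787G, 63.7, 65.9 and 58.3 in the libraries labelled G1242V, 74.0, 66.7 and 86.0 in empty_vector, and 96.2, 90.9 and 92.0 in WT. The libraries labelled G1242V were the lowest of the 12, below every R787G and every empty_vector library, and no library of another group reached the lowest WT library. NOP1 fell by 0.56 on the log2 scale in G1242V against WT (SE 0.09, 95% interval -0.75 to -0.38, limma adjusted p = 0.0116), to 67.3% of the WT mean. It was the 16th smallest p of the 6097. In empty_vector it was at 81.2% of the WT mean (-0.30, limma adjusted p = 0.0689) and in R787G at 86.0% (-0.22, limma adjusted p = 0.676).

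NOP56 (YLR197W, chromosome XII, 546097 to 547611) and NOP58 (YOR310C, chromosome XV, 896825 to 898360) encode related scaffold proteins that hold the guide RNA and position the methyltransferase. NOP56 stood at 93.9, 95.6 and 90.1 scaled TPM in R787G, 81.5, 87.9 and 77.7 in the libraries labelled G1242V, 79.8, 90.9 and 82.8 in empty_vector, and 104, 107 and 97.4 in WT. Every library of the 3 other groups lay below every WT library, and R787G overlapped empty_vector. NOP56 fell by 0.32 in G1242V against WT (SE 0.07, limma adjusted p = 0.0317). NOP58 stood at 73.0, 71.4 and 73.1 in R787G, 59.8, 74.0 and 58.5 in the libraries labelled G1242V, 60.9, 62.3 and 70.4 in empty_vector, and 84.2, 85.9 and 76.9 in WT. Here library 2 of the G1242V label stood apart from libraries 1 and 3 and was slightly above the R787G libraries. NOP58 fell by 0.36 in G1242V against WT (SE 0.09, limma adjusted p = 0.0445), and its call was held in 4 of 16 alternatives; with the replicate number as a block its adjusted p was 0.0625.

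SNU13 (YEL026W, chromosome V, 101943 to 102323) encodes the protein that binds the kink-turn of box C/D RNAs and also sits on the U4 spliceosomal RNA. It stood at 120, 104 and 123 scaled TPM in R787G, 109, 124 and 99.0 in the libraries labelled G1242V, 106, 105 and 117 in empty_vector, and 138, 125 and 137 in WT. The WT libraries were the highest, although library 2 of the G1242V label came within 1 scaled TPM of the lowest of them. Its log2 fold change in G1242V against WT was -0.27 and did not pass the test (SE 0.09, limma adjusted p = 0.110).

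CBF5 (YLR175W, chromosome XII, 506134 to 507585) encodes the pseudouridine synthase of the box H/ACA particle, known in human as dyskerin. It stood at 83.4, 90.2 and 86.3 scaled TPM in R787G, 73.5, 78.0 and 68.8 in the libraries labelled G1242V, 74.6, 78.1 and 90.3 in empty_vector, and 92.8, 102 and 90.4 in WT. The libraries labelled G1242V lay below every R787G and WT library, while the highest R787G and empty_vector libraries came to just under the lowest WT library. CBF5 fell by 0.37 in G1242V against WT (SE 0.08, limma adjusted p = 0.0324).

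GAR1 (YHR089C, chromosome VIII, 282681 to 283298) encodes the subunit that contacts Cbf5 and aids release of the modified RNA. It stood at 52.7, 56.6 and 59.1 scaled TPM in R787G, 45.5, 51.2 and 49.0 in the libraries labelled G1242V, 50.8, 51.4 and 59.8 in empty_vector, and 65.8, 65.4 and 68.3 in WT. The WT libraries stood clear of the other 9, and the libraries labelled G1242V were below all of R787G but overlapped empty_vector. GAR1 fell by 0.45 in G1242V against WT (SE 0.07, 95% interval -0.61 to -0.29, limma adjusted p = 0.0157), to 73.0% of the WT mean.

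NHP2 (YDL208W, chromosome IV, 87512 to 87982) encodes an RNA-binding protein of the L7Ae family, to which Snu13 also belongs. It stood at 134, 126 and 122 scaled TPM in R787G, 113, 127 and 127 in the libraries labelled G1242V, 124, 131 and 99.2 in empty_vector, and 145, 144 and 160 in WT. The WT libraries were the highest, and the other 3 groups overlapped each other. Its log2 fold changes were -0.29 in G1242V against WT and -0.35 in empty_vector against WT, and neither passed (limma adjusted p = 0.104 and 0.0694).

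NOP10 (YHR072W-A, chromosome VIII, 241664 to 241840) encodes a small protein that packs against the catalytic domain of Cbf5. It stood at 348, 272 and 284 scaled TPM in R787G, 379, 352 and 325 in the libraries labelled G1242V, 319, 336 and 274 in empty_vector, and 338, 274 and 295 in WT. The 3 other groups overlapped WT, and NOP10 was the exception among the 8 in not lying below WT in G1242V or in empty_vector. Its log2 fold change was 0.22 in G1242V against WT (95% interval -0.04 to 0.48, limma adjusted p = 0.248), 0.03 in empty_vector against WT (-0.22 to 0.29) and -0.01 in R787G against WT.

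**Figure D2:**
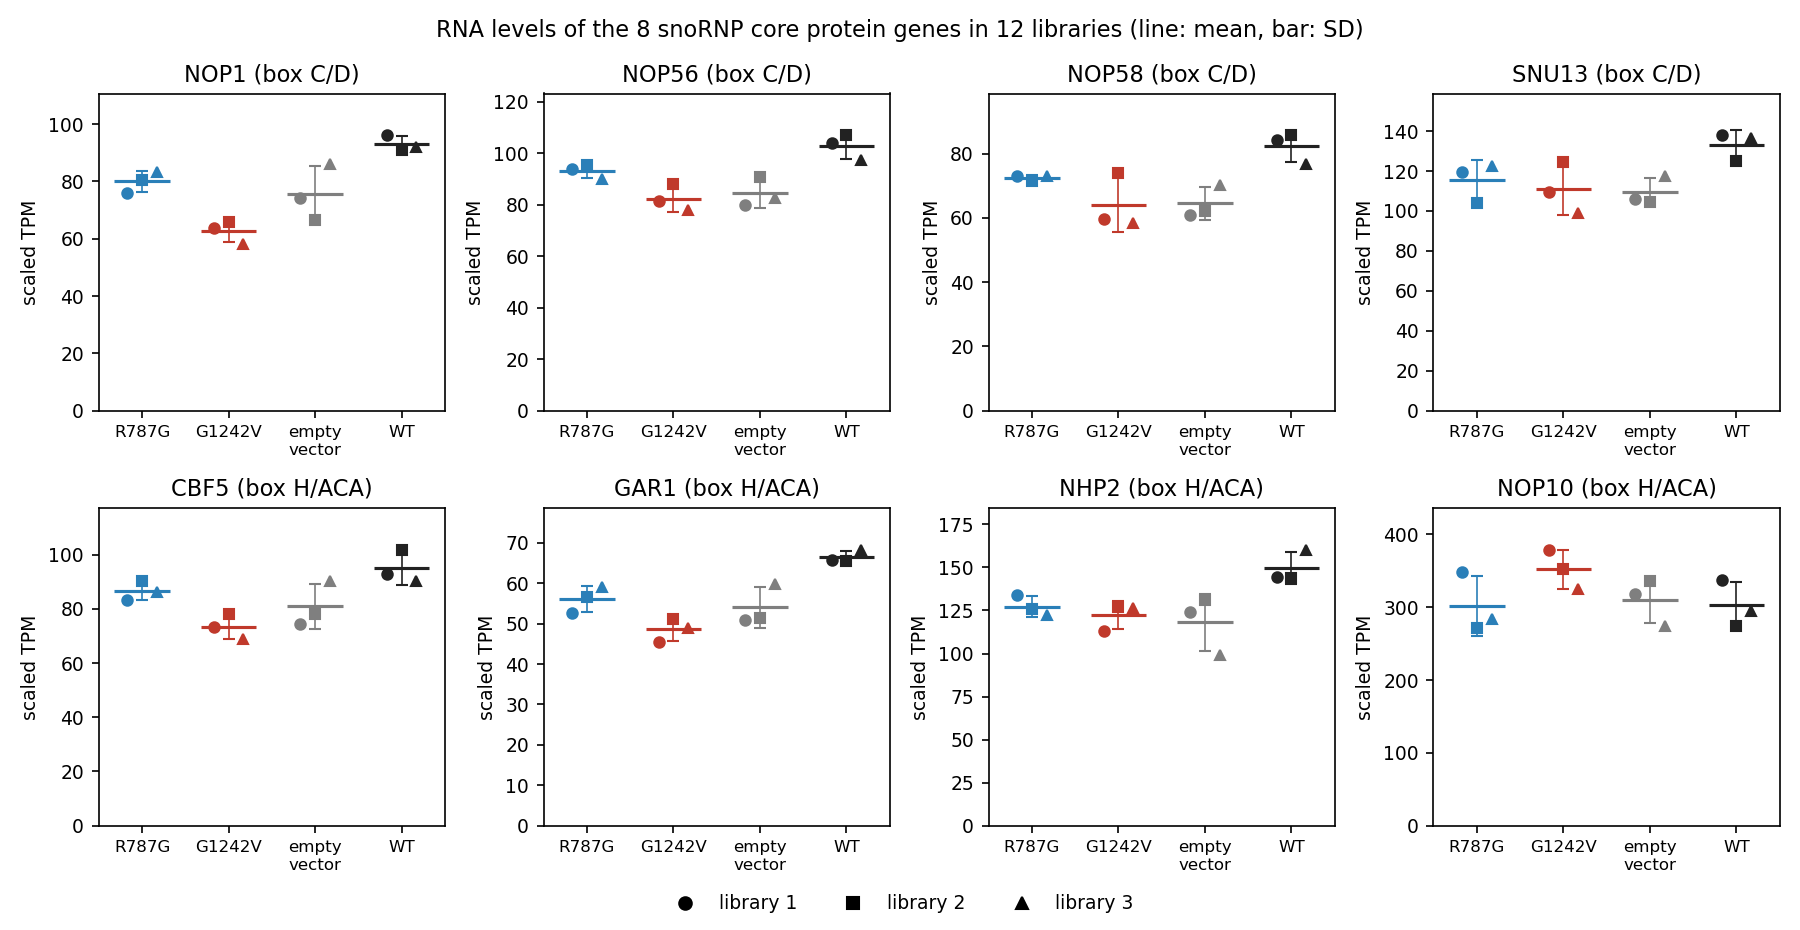
Scaled TPM of each core gene in the 12 libraries, by plasmid group (R787G, G1242V, empty vector, WT); markers show library numbers, lines the mean and bars the SD (n = 3). For 7 of the 8 genes the WT libraries stand above those of the other groups, while for NOP10 the groups overlap.

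The calls in G1242V rested on few libraries. With library 2 alone, whose SCC2 level was near that of R787G and whose spread is then taken from the other groups, 0 members were called and 7 of the 6097 features were. NOP1 then stood at -0.49, GAR1 at -0.37, CBF5 at -0.28, NHP2 at -0.23, NOP56 at -0.22, NOP58 at -0.15 and SNU13 at -0.10 on the log2 scale, and their median with NOP10 (0.22) was -0.23. In that library all members but NOP10 were still below every WT library. Without library 3 no member was called, without library 1 there were 2, and without library 2 there were 5. Leaving out a WT library instead left 0 members called without library 1, 2 without library 2 and 1 without library 3. On TPM as deposited, NOP1 was the member still called, and the signs of all 8 were kept under that scaling and under quantile normalization. Over 16 alternatives in all, NOP1 was called in 13, GAR1 in 11, CBF5 and NOP56 in 9 each, and NOP58 in 4.

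In empty_vector, the group without plasmid SCC2, 0 of the 8 core genes were called against WT, beside 2.64% of all features by limma. Before adjustment 7 of the 8 had a p under 0.05 and lay below WT, as did 14.8% of all features. The same 7 did not overlap WT, all below it, beside 18.4% of all features. The median of the 8 was -0.29, beside -0.01 over all features. NOP58 at -0.35 (limma adjusted p = 0.0582), NHP2 at -0.35, NOP1 at -0.30, GAR1 at -0.30 (limma adjusted p = 0.0535), SNU13 at -0.28, NOP56 at -0.28 (limma adjusted p = 0.0534) and CBF5 at -0.23 lay close together. NOP56 and GAR1 were the members nearest the threshold, and both passed it when features under a mean TPM of 10 were left out. NOP58 passed it when the libraries labelled G1242V stayed out of the fit.

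In R787G, 0 of the 8 were called against WT, beside 0% of all features by limma. Before adjustment 4 had a p under 0.05 and lay below WT, which were GAR1 (-0.24), NHP2 (-0.23), NOP1 (-0.22) and SNU13 (-0.21), beside 3.07% of all features. The groups did not overlap for 7 of the 8, all lower, beside 5.77% of all features. The median was -0.19, beside 0.00 over all features. The means of these 7 genes were 84.4% (GAR1) to 91.1% (CBF5) of WT, and NOP10 was at 99.7%. The comparisons of R787G, G1242V and empty_vector with WT share the 3 WT libraries, so a low or high WT library moves them together.

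**Figure D3:**
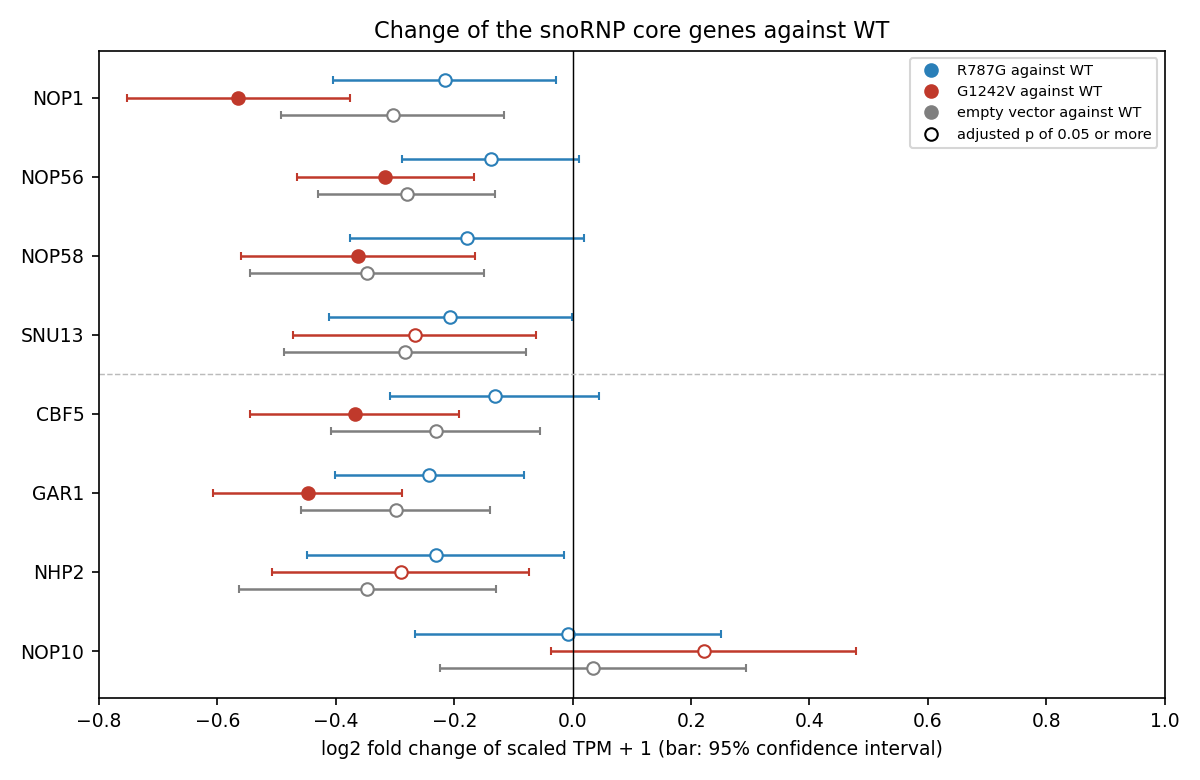
Log2 fold change against WT of each core gene in R787G (blue), G1242V (red) and empty vector (grey), with 95% confidence intervals; filled points passed an adjusted p of 0.05. The 5 filled points are NOP1, NOP56, NOP58, CBF5 and GAR1 in G1242V.

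Between the other groups no core gene was called. In R787G against empty_vector the log2 fold changes ran from -0.04 (NOP10) to 0.17 (NOP58), with a median of 0.09, and 2.36% of all features were called by limma. No member had an unadjusted p under 0.05, beside 12.9% of features that were higher at that level. Of the 8, NOP58 alone did not overlap, higher in R787G, beside 12.5% of all features. On TPM as deposited the median of all features shifted by -0.15 and that of the 8 was -0.06, so the direction here depended on the scaling. In G1242V against empty_vector the median was -0.03, and 0.148% of all features were called by limma. NOP1 was at -0.26 there (95% interval -0.45 to -0.07, limma adjusted p = 0.174), the member farthest from 0. It alone had an unadjusted p under 0.05, beside 7.92% of all features lower at that level, and it alone lay below without overlap, beside 11.7%. In R787G against G1242V the median was 0.18 and 0% of all features were called by limma. NOP1 was at 0.35 (95% interval 0.16 to 0.54, limma adjusted p = 0.117). NOP1, NOP56, CBF5 and GAR1 did not overlap, all higher in R787G, beside 11% of all features, and these 4 had an unadjusted p under 0.05, beside 10.4%. A difference between the G1242V and the empty_vector or R787G effects was thus not shown by these tests.

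The balance between the particles was then compared as ratios within a library, which a single scaling factor per library does not move. The summed TPM of the 4 box C/D genes over that of CBF5, GAR1 and NHP2 averaged 1.34 ± 0.0454 in R787G, 1.31 ± 0.0949 in G1242V, 1.32 ± 0.0973 in empty_vector and 1.32 ± 0.0653 in WT (SD, n = 3). The spread between libraries was larger than the differences between the groups (exact permutation p = 0.8, 0.8 and 1.0 against WT, two-sided, where 3 against 3 cannot go below 0.1). Within box H/ACA, NOP10 over GAR1 averaged 5.41 ± 1.03 in R787G, 7.28 ± 0.911 in G1242V, 5.80 ± 1.06 in empty_vector and 4.55 ± 0.509 in WT. The libraries labelled G1242V, at 6.64 to 8.33, did not overlap WT, at 4.19 to 5.13 (exact permutation p = 0.1, the smallest possible). Within box C/D, NOP1 over SNU13 averaged 0.696 ± 0.0695 in R787G, 0.567 ± 0.0324 in G1242V, 0.690 ± 0.0484 in empty_vector and 0.699 ± 0.0269 in WT. In the libraries labelled G1242V it lay below every library of the other groups (exact permutation p = 0.1 against WT). NOP56 over NOP58, the scaffold pair, averaged 1.29, 1.29, 1.32 and 1.25 in R787G, G1242V, empty_vector and WT, and the groups overlapped. These were 4 of 5 ratios computed, and none can pass an adjustment at this size.

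**Figure D4:**
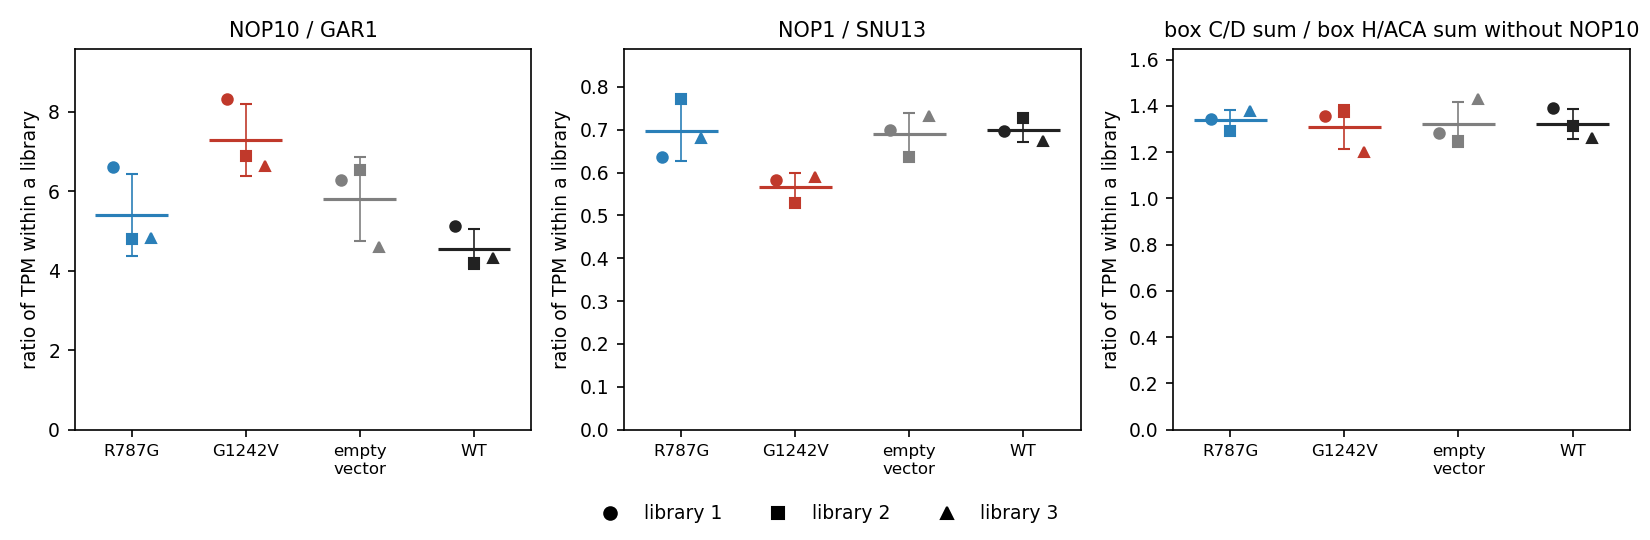
Ratios of TPM within each library for NOP10 over GAR1, NOP1 over SNU13, and the box C/D sum over the box H/ACA sum without NOP10, by plasmid group; lines are means, bars SD (n = 3) and markers library numbers. The libraries labelled G1242V lie at 6.64 to 8.33 for NOP10 over GAR1, above WT at 4.19 to 5.13, while the particle balance is near 1.3 in every group.

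Across the 12 libraries the members other than NOP10 were positively correlated in every pair. Pearson's r over log2(scaled TPM + 1) was 0.33 to 0.93 for their 21 pairs, with a median of 0.76, highest for NOP1 with GAR1. For deviations from the group means the median over these pairs was 0.45, within -0.80 to 0.77. NHP2 departed most there, with r of -0.80 to NOP1, -0.69 to CBF5, -0.47 to GAR1, -0.36 to NOP58 and -0.23 to SNU13, but 0.14 to NOP56. NOP56 was also below 0 to NOP1 (-0.16) and to GAR1 (-0.10). The 7 pairs with NOP10 had r from -0.65 to 0.01. These are descriptions over libraries that share groups and scaling factors.

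The 8 features most like the mean of the core genes over the 12 libraries, among 5421 whose TPM averaged at least 10, were MCM2 (r = 0.96), LIA1, MKC7, PUF6, RSA4, SUP45, FUR4 and HAS1 (r = 0.94). RSA4, an assembly factor of the large ribosomal subunit, averaged 16.8 scaled TPM in R787G, 13.8 in G1242V, 16.6 in empty_vector and 22.9 in WT. MCM2, a subunit of the replicative helicase, averaged 16.8 in R787G, 14.8 in G1242V, 15.1 in empty_vector and 18.6 in WT. Both were lowest in G1242V and highest in WT, as were the means of NOP1, NOP56, NOP58, CBF5 and GAR1. Because both were picked for likeness over these same 12 libraries, a shared order follows from the choice and is no separate result.

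The genes that work with the core proteins were followed by list. Nucleolar partners of the core proteins, namely NSR1, SRP40 and HMT1, fell in 3 of 3 cases in G1242V against WT, where 2.59% of all features were called lower. HMT1, the arginine methyltransferase that modifies Nop1, Gar1 and Nsr1, averaged 76.0 ± 9.44 scaled TPM in G1242V and 101 ± 2.55 in WT (log2 fold change -0.42, limma adjusted p = 0.0262, n = 3 each). It also fell in empty_vector, which averaged 71.3 ± 3.05 (-0.50, limma adjusted p = 0.0440). NSR1, yeast nucleolin, fell by 0.37 and SRP40, a nucleolar protein related to Nopp140, by 0.36 in G1242V against WT (limma adjusted p = 0.0269 and 0.0431).

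Helicases that release snoRNAs from pre-ribosomes fell in 2 of 5 cases in G1242V against WT, again beside 2.59% of all features, with a list median of -0.25. HAS1 fell by 0.45 and PRP43 by 0.35 (limma adjusted p = 0.0273 and 0.0157). Of the 6 partners of the U3 snoRNP, which is a box C/D particle that acts in precursor cutting, SOF1 fell by 0.33 and LCP5 by 0.32 (limma adjusted p = 0.0375 and 0.0357), with a list median of -0.27. Of 12 other enzymes that modify ribosomal RNA, which are no part of the snoRNP core, 4 fell, and the list median was -0.24. These were the methyltransferases SPB1 (-0.37), NOP2 (-0.30) and EMG1 (-0.27), and the acetyltransferase KRE33 (-0.26), which is itself directed by the box C/D snoRNAs snR4 and snR45. No member of these 4 lists rose, and every one lay below 0, as did 48.4% of all features.

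Genes for the making of snoRNPs and snoRNAs had no calls in G1242V against WT. Over all features, 13.6% had an unadjusted p under 0.05 and were lower, and 13.3% were higher at that level. Of 9 assembly factors, 0 were called and 2 had an unadjusted p under 0.05, the median was -0.12, and the member of smallest p was RVB2 (-0.21, limma adjusted p = 0.137). Of 12 snoRNA processing genes, 0 were called, 4 had an unadjusted p under 0.05 (3 lower, 1 higher), and the median was -0.07. The 8 stand-alone pseudouridine synthases, which need no guide RNA, had 0 calls, 3 unadjusted p under 0.05 (2 lower, 1 higher) and a median of -0.12, with PUS1 at -0.27 (limma adjusted p = 0.0503). Among 9 partners of Snu13 in the U4/U6.U5 particle, SNU23 rose by 0.40 (limma adjusted p = 0.0337) and 8 were not called, with a median of 0.06. Differences between the lists were not tested. On TPM as deposited, 1 nucleolar partner was the list member outside ribosomal RNA still called, while the sign of each list median was kept. Without library 3 of the G1242V label, 4 features were called in all, and 3 without WT library 1.

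In empty_vector against WT, 1 of the 12 snoRNA processing genes was called, where 2.64% of all features were called in either direction. The debranching enzyme DBR1, which opens intron lariats that hold snoRNAs, rose by 0.33 (limma adjusted p = 0.0452), averaging 23.7 ± 1.74 scaled TPM in empty_vector and 18.7 ± 0.963 in WT (n = 3 each). HAS1 stood at -0.37 (limma adjusted p = 0.0543), IMP3 at -0.36 and EMG1 at -0.27 without passing. List medians were -0.32 for nucleolar partners, -0.16 for other modification enzymes, -0.14 for U3 partners and -0.09 for helicases and for assembly factors. On TPM as deposited, where the median of all features was 0.09, they were -0.22, -0.060, -0.045, 0.0040 and 0.0057, so that those of helicases and assembly factors turned sign. In R787G against WT no list member was called, and the members of smallest p within their lists were LCP5 of the U3 partners (-0.30), NSR1 of the nucleolar partners (-0.30), EMG1 of the other modification enzymes (-0.21) and PRP43 of the helicases (-0.21). The medians were -0.24 for U3 partners, -0.18 for nucleolar partners, -0.16 for helicases and -0.14 for other modification enzymes. In R787G against empty_vector, where 2.36% of all features were called in either direction, DBR1 fell by 0.32 (limma adjusted p = 0.0369). The calls of single genes in empty_vector against WT and in R787G against empty_vector depended on each library: leaving out 1 of the 6 gave 0 to 24 called features in place of 161 against WT, and 0 to 415 in place of 144 in R787G against empty_vector.

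**Figure D5:**
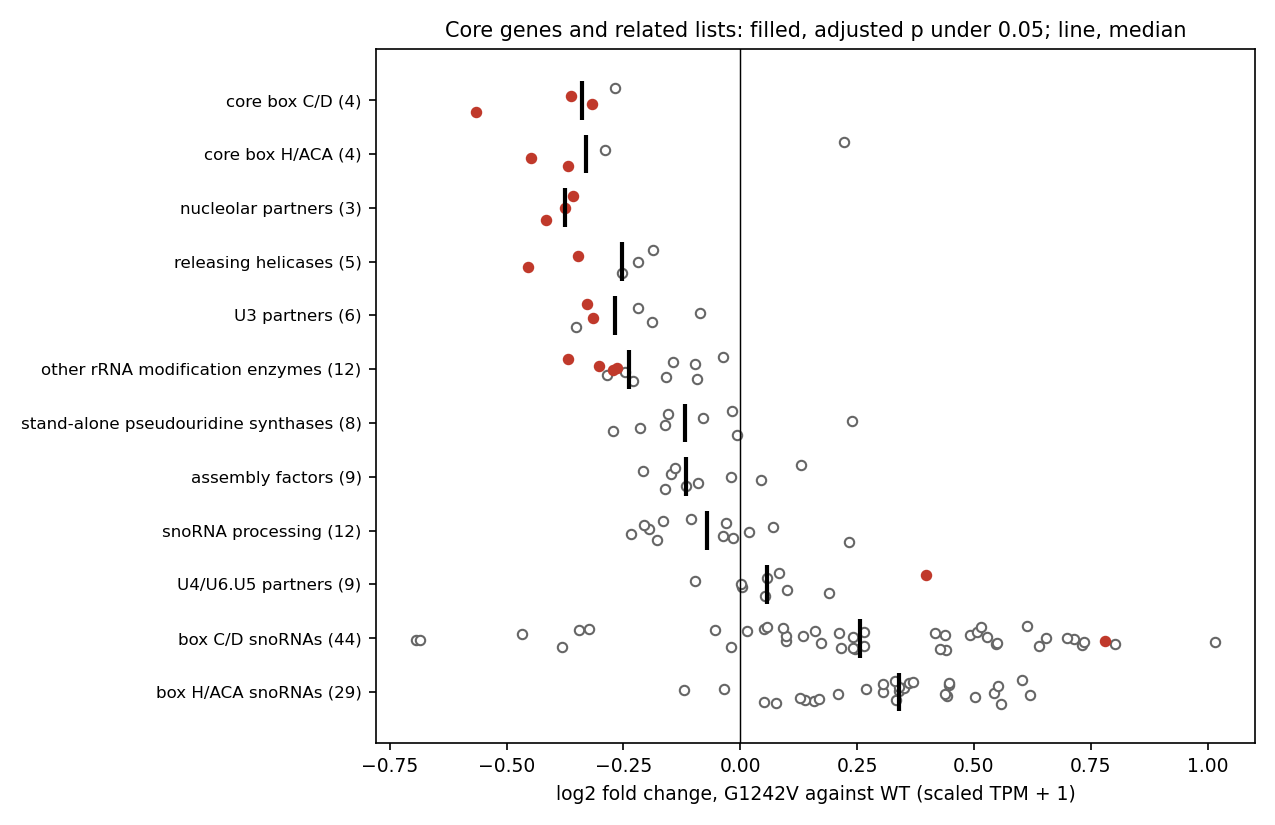
Log2 fold change in G1242V against WT of the core genes and of each related list, with the number of tested members in parentheses; filled points passed an adjusted p of 0.05 and vertical lines are list medians. Core genes, nucleolar partners, helicases, U3 partners and other modification enzymes lie mostly below 0, and the snoRNAs mostly above it.

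The guide RNAs themselves lay on the other side of 0 in the libraries labelled G1242V. Of 47 box C/D snoRNAs, 44 were tested, 36 lay above 0, where 48.4% of all features lay below 0, and the median was 0.26. Of the 44, 14 lay above WT without overlap and 14 had an unadjusted p under 0.05 and were higher, beside 20.8% and 13.3% of all features. Only snR50, a methylation guide, was called, 1 of 44 beside 1.98% of all features called higher. It rose by 0.78 (limma adjusted p = 0.0300). Of 29 box H/ACA snoRNAs, 27 lay above 0 and 17 lay above WT without overlap, beside 20.8% of all features, with a median of 0.34; 0 were called, 8 had an unadjusted p under 0.05, beside 13.3% of all features higher at that level, and the smallest p was that of snR34 (0.62, limma adjusted p = 0.0703). In empty_vector against WT the medians were 0.09 for box C/D and -0.14 for box H/ACA (0.17 and -0.036 on TPM as deposited). There snR50 rose by 0.71, and snR44 fell by 0.80. The box C/D snR74 was called lower and was listed at 0 in every empty_vector library. Of the 44 box C/D snoRNAs 1 was called higher and 1 lower, and of the 29 box H/ACA snoRNAs 1 was called lower. Over all features 2.64% were called in that comparison. In R787G against WT 0 snoRNAs were called, with medians of 0.06 and 0.05 (0.0045 and -0.0097 on TPM as deposited). In R787G against empty_vector, where 2.36% of all features were called, snR44 rose by 0.80 (limma adjusted p = 0.0436). Summed scaled TPM of the box H/ACA snoRNAs was 61569 to 75163 in R787G, 81520 to 86704 in G1242V, 42772 to 80116 in empty_vector and 63025 to 64620 in WT. The ribosomal RNA feature RDN25-1 was at -2.12 in R787G against WT (limma adjusted p = 0.122), and it fell in G1242V (-2.91) and in empty_vector (-2.03) against WT (limma adjusted p = 0.00807 and 0.0440). It was thus below WT in all 3 groups. Its part in the snoRNA values was not tested.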

How the data were processed

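RNA from cultures grown in triplicate per the labels was depleted of ribosomal RNA and sequenced as stranded 50 bp single reads. The protocol text gives the null strain in duplicate, but 3 empty_vector libraries were given. The authors deposited TPM, which keep no depth; per the submitters' processing notes, the tools were RSEM, STAR, edgeR and bcl2fastq 2.17 on sacCer3, without roles. Of 7036 features, 3 with shifted cells were left out, 1 unnamed column was not used, and 184 were at 0 in every library. TPM were divided by a median-of-ratios factor over 5421 features (averaging at least 10, no zero) and tested as log2(scaled TPM + 1), pseudocount 1, for the 6097 features averaging at least 1 TPM, in 1 fit over 12 libraries (limma 3.58.1, R 4.3.3, two-sided, variance trend, Benjamini-Hochberg over all features, threshold 0.05). The p-values rest on the spread between cultures, pooled over the 4 groups, with 8 residual degrees of freedom. Limma moderated this spread with 3.2 prior degrees of freedom taken from all features. The fit was also run on simulated data with independent noise, which held no deviations shared by the features of a library.

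Promoters were read from the R64 genome (RefSeq). The members and lists were chosen with earlier results of these data known. All 8 members are named; from each list up to 4 called members, largest change first, or the member of smallest p; other list members nearest the threshold were named after their values were seen. Names were matched through synonyms (DBP4 is HCA4). Alternatives were other scalings, pseudocounts, filters, variance models, a replicate block, and fits without libraries.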

Additional observations from a re-analysis of the deposited data

How the results depend on the processing

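Read depth is unknown, so the least detectable difference cannot be stated; 3 libraries a group limit every call. Of the member fold changes under alternatives, 700 kept their direction and side of the threshold, 34 lost the call, 4 gained it and 30 changed sign. Most of these had no call to lose. Only the 5 members called in G1242V against WT had one, and all 34 losses were theirs. Of 16 alternatives, the call was held in 13 for NOP1, 11 for GAR1, 9 each for CBF5 and NOP56, and 4 for NOP58. Causes were not tested.

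With TPM as deposited, 1 member was called in G1242V against WT (NOP1), and 57 features in place of 279, of which 68.4% were higher in place of 43.4%. The median of the 8 became -0.19 in empty_vector against WT (74.8% of calls higher in place of 42.9%), -0.25 in R787G against WT, -0.15 in G1242V against empty_vector and -0.063 in R787G against empty_vector (24% of calls higher in place of 73.6%). There NOP1 stood at -0.069, NOP56 at -0.015, SNU13 at -0.080, CBF5 at -0.057, GAR1 at -0.099 and NHP2 at -0.041, and in G1242V against empty_vector SNU13 at -0.11 and NHP2 at -0.067. Quantile normalization left 4 members called in G1242V against WT.

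With features averaging at least 10 TPM, 2 members were called in empty_vector against WT, and 1 when the fit left out G1242V. With the G1242V library 2 alone, 0 members were called against WT and the medians were -0.23 against WT, 0.087 against empty_vector (NOP56 0.059, NOP58 0.20) and 0.042 for R787G against G1242V (NOP58 -0.029, SNU13 -0.11).

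Leaving out 1 library at a time gave 0 to 5 called members in G1242V against WT and a median of -0.39 to -0.31; for R787G against WT the median ran from -0.19 to -0.16. Signs changed for NOP10 in empty_vector against WT (-0.033 to 0.12), R787G against WT (-0.12 to 0.074) and R787G against empty_vector (-0.15 to 0.028), for NHP2 in R787G against empty_vector (-0.0039 to 0.19), for NOP56 (-0.083 to 0.018), NOP58 (-0.12 to 0.049), SNU13 (-0.068 to 0.095) and NHP2 (-0.063 to 0.14) in G1242V against empty_vector, and for SNU13 in R787G against G1242V (-0.018 to 0.15). 

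Whether replicate numbers pair the libraries is not stated by the labels and was not tested. Of 18 same-numbered pairs, 8 had deviations correlated above 0.1 (-0.258 to 0.468), and 6 of 12 libraries correlated best with their own number. With the replicate block 4 members were called in G1242V against WT (207 features in place of 279) and 0 in the other comparisons (0 features in place of 161 in empty_vector against WT, 68 in place of 144 in R787G against empty_vector and 14 in place of 9 in G1242V against empty_vector).

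Over all features, empty_vector against WT had 0 calls with no filter and with no variance trend. Fitting only the 2 groups gave 823 calls in G1242V against WT, 80 in R787G against empty_vector, 0 in G1242V against empty_vector and 3 in R787G against WT, which had 5 when the fit left out G1242V. R787G against empty_vector had 288 calls with TPM as deposited and 95 with no variance trend, and G1242V against empty_vector had 0 with TPM as deposited and 94 with library 2 alone. Leaving out 1 library gave 0 to 30 in G1242V against empty_vector and 0 to 135 in R787G against G1242V.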

Other observations

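The promoter motifs shared by the core genes were also counted over all other tested genes with a promoter in the R64 annotation, without testing a difference between the classes. In the libraries labelled G1242V against WT, 38 of 193 genes with both the PAC and the RRPE core fell and 0 rose (19.7% lower, median log2 fold change -0.19). With the RRPE core only, 19 of 198 fell and 1 rose (median -0.11). With the PAC core only, 31 of 741 fell and 17 rose (median -0.01). With neither, 61 of 4539 fell and 89 rose (1.34% lower, median 0.01). Over all features, 279 were called there, against 4 without library 3 of the G1242V label and 3 without WT library 1. The classes were not counted in those fits. In empty_vector against WT, 8 of the 193 genes with both fell and 0 rose, with a median of -0.13, beside 0.01 for genes with neither; on TPM as deposited 1 was called lower, with a median of -0.031, beside 0.11 for genes with neither. In R787G against WT, no gene was called by limma, 89.1% of the genes with both lay below 0 and their median was -0.12. Of the genes with neither, 46.0% lay below 0, with a median of 0.008. On TPM as deposited 6 of the 193 were called lower in G1242V against WT, with a median of -0.21, beside -0.010 for genes with neither. The classes overlap with the ribosome biogenesis lists described above, and the comparisons share the WT libraries.

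Among the lists, the PAC core was present in 5 of 5 helicases, 3 of 3 nucleolar partners, 6 of 6 U3 partners, 6 of 8 stand-alone pseudouridine synthases and 10 of 12 other modification enzymes. It was present in 5 of 12 snoRNA processing genes, 3 of 9 assembly factors and 1 of 9 U4/U6.U5 partners, beside 17.03% of all promoters. Both cores were in 4 of 5 helicases, 1 of 3 nucleolar partners, 2 of 6 U3 partners and 5 of 12 other modification enzymes. They were together in 2 of 8 stand-alone pseudouridine synthases, 1 of 12 snoRNA processing genes and 1 of 9 U4/U6.U5 partners. Of the assembly factors, 0 of 9 had both, beside 3.349% of all promoters.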
